A study of Mus musculus with 2 samples.

Results

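Heterotrimeric G proteins carry the signal of receptors for many neuropeptides and amines into the cell, and RGS proteins (regulators of G protein signalling) switch it off. The genes of both families were taken by symbol from the deposited expression table of the mouse suprachiasmatic nucleus (SCN), which sets circadian time for the rest of the body. The symbols were Rgs with a number, Gna with the standard suffixes of α subunits, Gnb1 to Gnb5, and Gng with a number. Of 24229 listed genes, 49 matched, namely 15 Gα, 5 Gβ and 10 Gγ subunits and 19 RGS genes. The donors of the tissue, C57BL/6 mice of wild-type genotype aged 68 days after birth, had been entrained for 4 weeks to a light-dark cycle of normal period (NT) or to a short one (ST), then kept in darkness for 5 days and sampled at circadian time 4 h. All mice, in both groups, had first spent 7 days in darkness, and 8 mice were assigned to each cycle. Each group was represented by 1 library of polyadenylated RNA, and no source used here gives the periods of the cycles or the number of mice behind a library.

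A receptor that binds its ligand makes the α subunit exchange GDP for GTP and release the βγ pair, and both parts then act on enzymes and channels. Gαs raises cAMP, Gαi, Gαo and Gαz lower it or open potassium channels through βγ, and Gαq and Gα11 activate phospholipase C. Gα12 and Gα13 form a further class. RGS proteins speed up GTP hydrolysis by the α subunit, mostly of the Gi and Gq classes. In the SCN, Rgs16 is known as a rhythmic gene of dorsomedial neurons where it relieves the block of cAMP synthesis by Gi, and Gz is known as the partner of the orphan receptor Gpr176.

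With 1 library per group there was no spread between replicates, so no difference was tested and each one compares these libraries, not the conditions. The totals were 19476800 counts for ST and 24790727 for NT. Ratios are ST over NT on counts scaled by median-of-ratios size factors, and the interval beside each is the 95% counting interval of the fold, which covers counting error only. A gene was measured when its mean normalised count was at least 50, which held for 14343 genes and for 38 of the 49 members. All 6 SCN markers were measured and none was at 0. Detection alone does not tell the SCN from its surroundings, as no listed striatal, meningeal or blood marker was at 0 either. The summed level of the SCN markers was 884 RPKM in ST and 825 RPKM in NT (reads per kilobase of gene model, scaled to library size). That sum was carried by Avp at 656 and 563 RPKM and Vip at 168 and 197 RPKM.

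The 250 bases before the start sites of 4 RGS genes of chromosome 1 are given here as examples. Rgs16 and Rgs5 had the highest and the lowest ratio of the members, Rgs4 is the genomic neighbour of Rgs5, and Rgs2 was the other RGS gene with an interval above 1. They are RefSeq sequences of build GRCm38.p6, read on the coding strand. Capitals mark TGACG in either orientation, the short form of the cAMP response element. Rgs16 lies at chr1:153740103-153740352 (plus strand), Rgs4 at chr1:169747643-169747892 (minus strand), Rgs2 at chr1:144004150-144004399 (minus strand) and Rgs5 at chr1:169655251-169655500 (plus strand).
Rgs16: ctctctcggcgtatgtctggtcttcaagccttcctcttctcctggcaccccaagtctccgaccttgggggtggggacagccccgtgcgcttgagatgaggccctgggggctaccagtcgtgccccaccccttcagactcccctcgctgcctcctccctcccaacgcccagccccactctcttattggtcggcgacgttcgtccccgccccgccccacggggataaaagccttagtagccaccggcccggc
Rgs4: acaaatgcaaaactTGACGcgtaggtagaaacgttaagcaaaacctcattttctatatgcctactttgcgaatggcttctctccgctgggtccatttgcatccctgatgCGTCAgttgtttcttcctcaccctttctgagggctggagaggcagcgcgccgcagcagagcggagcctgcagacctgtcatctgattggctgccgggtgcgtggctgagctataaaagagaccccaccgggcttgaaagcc
Rgs2: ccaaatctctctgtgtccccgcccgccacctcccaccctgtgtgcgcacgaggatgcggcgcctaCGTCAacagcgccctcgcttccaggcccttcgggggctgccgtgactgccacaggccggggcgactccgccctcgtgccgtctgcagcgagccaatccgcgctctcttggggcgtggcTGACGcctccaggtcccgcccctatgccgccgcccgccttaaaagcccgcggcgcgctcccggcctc
Rgs5: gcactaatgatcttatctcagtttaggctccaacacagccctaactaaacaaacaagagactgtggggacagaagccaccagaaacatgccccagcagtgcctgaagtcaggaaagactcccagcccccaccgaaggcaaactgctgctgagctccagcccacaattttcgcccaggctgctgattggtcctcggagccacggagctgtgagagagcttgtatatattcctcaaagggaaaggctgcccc
TGACG occurred at 236 and, reversed, at 141 bases before the start of Rgs4, and reversed at 185 and forward at 67 bases before the start of Rgs2. It was not in the windows of Rgs16 and Rgs5. Among all 32851 RefSeq windows of this length, 17.8% held it, against 10 of the 50 windows that belong to 37 members. The full element TGACGTCA, which contains TGACG, was in 0 member windows and in 1.55% of all windows, and the E-box CACGTG in 4 member windows and in 6.02% of all. A match is a description of letters, not a binding site. Cytosine and guanine made up 72.4% of the Rgs2 window, 66.4% of that of Rgs16 and 53.6% of those of Rgs4 and Rgs5.

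Within each family a few genes held most of the transcript. Gnas, which encodes Gαs, led the α subunits with 210 RPKM in ST and 197 RPKM in NT. Gnai2 followed with 154 and 157 RPKM, then Gnao1, the Go subunit typical of neurons, with 73.6 and 74.0 RPKM, and Gnai1 with 52.8 and 53.7 RPKM. Summed by class, the i/o/z and transducin genes reached 322 RPKM in ST and 325 in NT, the s and olf genes 223 and 210, the q/11 genes 67.0 and 66.7, and the 12/13 genes 61.8 and 64.1. By deposited RPKM the order of these classes was the same in both libraries, but it rests on the length unit, as settings added after the data had been seen show. Without division by length the s and olf genes came first in both (RPM of 2385 against 1115 for the i/o/z and transducin genes in ST). Per kilobase of merged exons the 12/13 genes in NT, at 64, passed the q/11 genes, at 63.5. The deposited Gnas value spreads its reads over a gene model of 11.2 kb that merges the alternative first exons of this imprinted locus, and the Gnas count is fractional.

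Gnb1 held 54.1% of the summed Gβ level in ST and 55% in NT, at 168 and 170 RPKM. Gnb2 stood at 85.4 and 83.2 RPKM and Gnb5, the divergent β subunit that pairs with the R7 group of RGS proteins, at 52.8 and 51.6 RPKM. Gnb4 was low, at 4.32 and 4.46 RPKM, and Gnb3, known from photoreceptors and taste cells, had 3 counts in each library. The order of the 5 Gβ genes was therefore the same in ST and NT.

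Gng3, a neuronal γ subunit, was the highest of the γ genes, at 222 RPKM in ST and 212 in NT. Gng2 at 56.5 and 54.9 RPKM and Gng4 at 39.1 and 41.3 RPKM came next. The RPKM order among γ genes rests on the length of each gene model. The deposited model of Gng2 is 0.624 kb long against 4.39 kb of merged exons in GENCODE vM1, and that of Gng3 is 0.776 kb against 1.70 kb. Over merged exons, the setting added after the data had been seen, Gng2 ranked 7 of 10 instead of 2, while Gng3 kept rank 1 with 45.2% of the γ level in ST against 54.9% as deposited. Over all members the deposited and merged lengths lay within 0.67 to 1.5 of each other for 42 of 49.

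Rgs16 was the most abundant RGS gene. It stood at 104 RPKM in ST and 92.4 RPKM in NT, which was 38.9% and 36.4% of the summed level of the 19 RGS genes and rank 566 and 640 among all listed genes. Rgs10, known from microglia as well as neurons, followed with 30.4 and 28.7 RPKM, and Rgs4, a neuronal RGS gene, with 26.9 and 25 RPKM. By deposited RPKM only the places of Rgs2 and Rgs5 were exchanged among the 8 highest RGS genes. Rgs2 had 18 RPKM in ST against 16.4 in NT, and Rgs5 had 15.4 against 19. Without division by length the order differed, with Rgs17 at rank 2 and Rgs10 at rank 7 of 19 in both libraries.

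**Figure D1:**
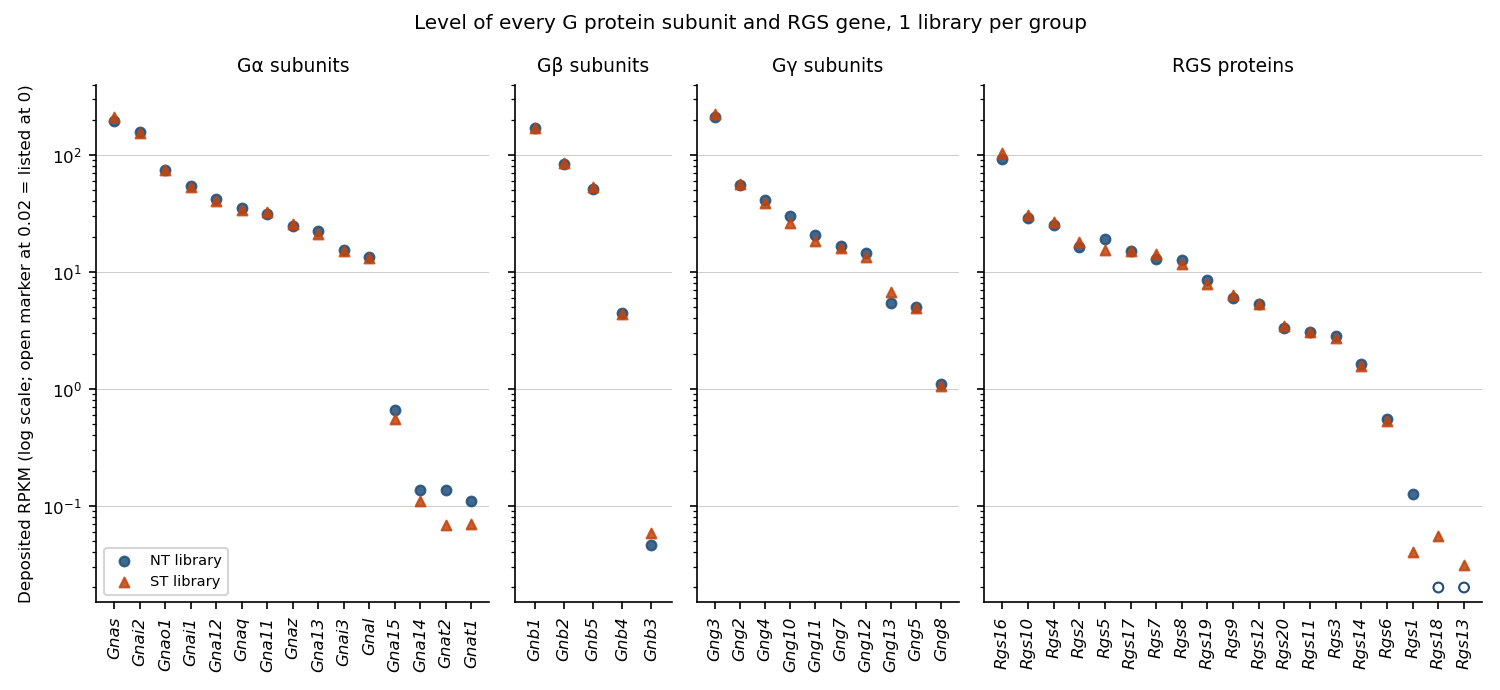
Deposited RPKM (log axis) of all 49 members in the NT library (circles) and the ST library (triangles), ordered within each family by their summed level, with open markers at 0.02 for genes listed at 0. Gnas, Gnb1, Gng3 and Rgs16 head their families in both libraries, and the markers of a gene mostly overlap.

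The 11 members below the filter were mostly genes known from sensory or blood cells. The transducins of rods and cones had 3 counts in ST and 6 in NT (Gnat1) and 4 and 10 (Gnat2). Gna14 had 7 and 11 counts, and Gna15, an α subunit of blood cells, 23 and 35. Rgs1 had 1 and 4 counts, Rgs13 had 1 and 0, and Rgs18 had 2 and 0, all of them RGS genes of blood cells. Gng8 had 19 and 25 counts, Gng13, a γ subunit of taste cells, 45 and 46, and Rgs6, of the R7 group, 16 and 21. At such counts no fold is given for any of the 11.

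Between the libraries most members differed little. Rgs5, known as a marker of pericytes and smooth muscle of brain vessels, was 1.25-fold lower in ST (interval 1.16 to 1.34). In bulk tissue, fewer cells of a type and less RNA per cell cannot be told apart. Rgs5 was the only member past 1.2-fold with an interval clear of 1, so that 1 of 38 measured members was lower by this rule, beside 3.67% of all measured genes. No member was 1.2-fold higher (0 of 38, beside 1.73% of all genes), and 0 were past 2-fold in either direction, where 0.0209% of all genes were higher and 0.23% lower. Within 1.1-fold lay 84.2% of the measured members and 73.2% of all measured genes. The members were better counted than most, with a median normalised count of 1405 against 621 for all measured genes. Their median log2 ratio was -0.03, against -0.00 for all genes, with 14 higher and 24 lower. Of all measured genes 7048 were higher and 7295 lower. Whether the split of the members differs from this was not tested.

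By the weaker rule of an interval clear of 1, 3 members were higher in ST, beside 7.79% of all measured genes, and 7 were lower, beside 10.2%. The 3 were Rgs16, Gnas and Rgs2, and the 7 were Rgs5, Gng10, Gng12, Rgs8, Gng4, Gna13 and Gnaq. As shares of the 38 members these are 7.89% and 18.4%. Intervals are narrower for well-counted genes, and the part of the higher counts of the members in these shares was not tested. With scaling by total counts, 5 were higher, Rgs4 and Rgs7 being added, and 5 lower, without Gna13 and Gnaq, beside 9.91% and 8.71% of all genes. The authors' deposited table gives an adjusted p of 1 for each of the 49 members, so 0 of them passed 0.05, beside 0.202% of all listed genes. Without adjustment 1 member, Rgs5, had a p under 0.05 in the authors' deposited table (p = 0.0194), as had 523 of 24229 genes, and the authors' comparison also rests on 1 library per group.

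**Figure D2:**
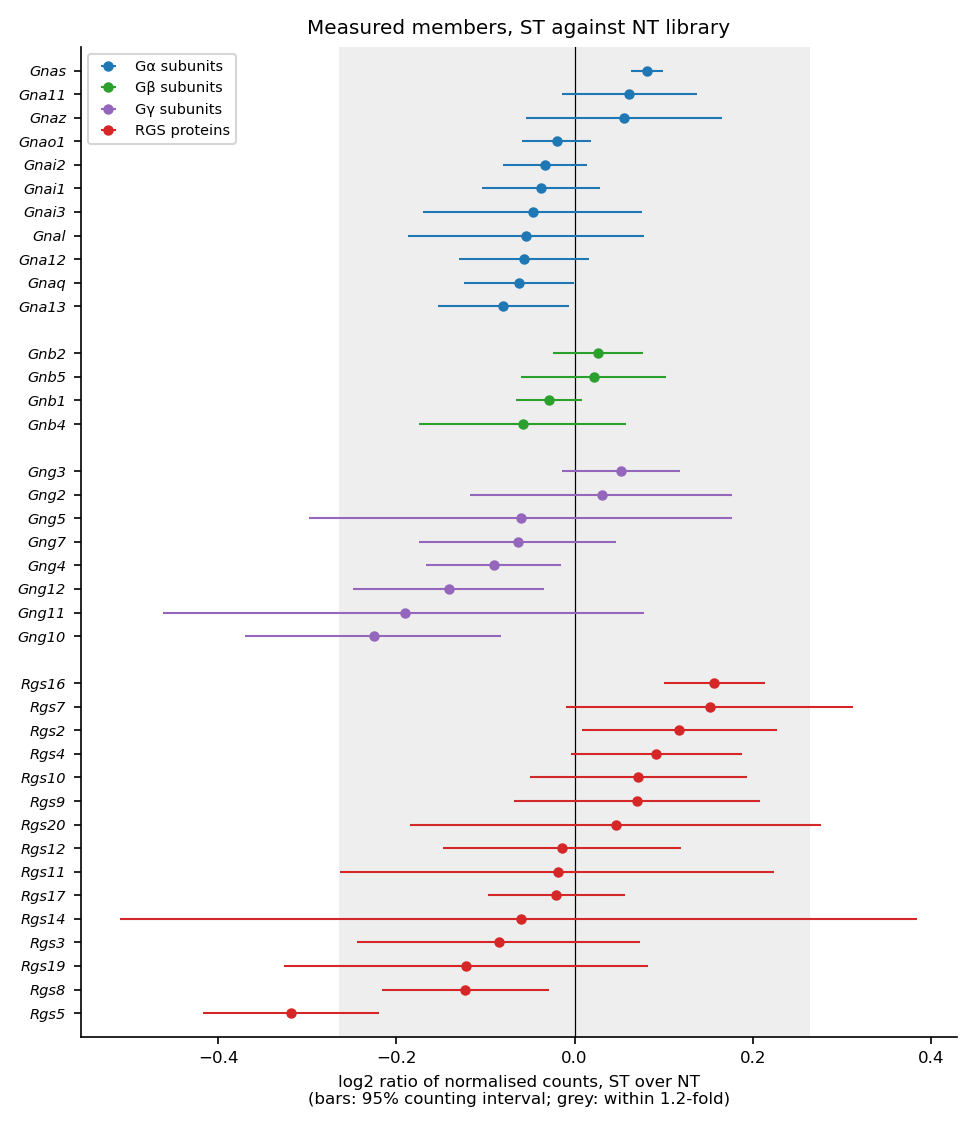
The log2 ratio of normalised counts, ST over NT, for the 38 measured members by family, with 95% counting intervals as bars and the range within 1.2-fold in grey. Rgs5 at -0.32 lies outside the grey range, and Rgs16 at 0.16 is the highest point.

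Among the α subunits, Gnas had 45632 counts in ST and 54417 in NT. Its log2 ratio was 0.08 (fold interval 1.05 to 1.07), the only α subunit with an interval above 1. On the other side, Gna13 had 2644 and 3527 counts with a log2 ratio of -0.08 (0.899 to 0.995), and Gnaq 3686 and 4857 counts with -0.06 (lower bound 0.917, upper bound just under 1). With total-count scaling both intervals held 1, and that of Gnaq did so with TMM scaling too. Like those of Gnas, the counts of Gna13 are fractional, so Gna13 is not among the members with whole counts only. Gna11, which acts on the same phospholipase as Gnaq, stood at 0.06 (0.990 to 1.1), and Gna12 at -0.06 (0.914 to 1.01).

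The inhibitory α subunits were nearly level. Gnai2 had 6546 and 8454 counts and a log2 ratio of -0.03 (0.946 to 1.01). Gnai1 stood at -0.04 (0.930 to 1.02), Gnai3 at -0.05 (0.889 to 1.05), Gnao1 at -0.02 (0.960 to 1.01) and Gnaz, the Gz subunit, at 0.06 (0.963 to 1.12). All 5 intervals held 1, but they cover counting error only and no difference was tested. Of these 5 genes Gnao1 has fractional counts. Gnal, the stimulatory subunit of olfactory and striatal neurons, had a ratio of -0.05 (0.878 to 1.06). Over the 11 measured α genes the median was -0.04, and summed over all 15 the counts were 79825 in ST and 98476 in NT, a fold of 1.02 (1.01 to 1.03), of which Gnas made up more counts than all others together.

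All β subunits had intervals that held 1. Gnb1 had 10235 and 13177 counts with a log2 ratio of -0.03 (0.955 to 1.01), Gnb2 5648 and 6998 with 0.03 (0.983 to 1.06), Gnb5 2185 and 2717 with 0.02 (0.959 to 1.07), and Gnb4 1066 and 1401 with -0.06 (0.886 to 1.04). Gnb1 and Gnb2 have fractional counts. The summed β counts gave a fold of 0.994 (0.975 to 1.01). Their median was -0.00, and it turned to 0.01 with total-count scaling, so no direction is given for the β genes.

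The γ subunits ranged more widely, with a median of -0.08 and 6 of 8 below 0. That is too few genes to set against the near-even split of all measured genes. Gng10, a widely expressed γ subunit, had 666 counts in ST and 983 in NT, a log2 ratio of -0.23 (0.774 to 0.944). Gng12, also widely expressed, had 1220 and 1698 counts and stood at -0.14 (0.842 to 0.977). Gng11, known from endothelium, had 195 and 281 counts with a ratio of -0.19 (0.726 to 1.06), an interval that held 1. Gng4 had 2458 and 3303 counts and stood at -0.09 (0.891 to 0.990). Gng3 and Gng2 were the 2 above 0, at 0.05 (0.990 to 1.09) and 0.03 (0.922 to 1.13), and both intervals held 1. The interval of Gng10 and that of Gng3 did not overlap, but these are the lowest and the highest of the 8 measured γ genes. The share of such pairs over all genes was not computed. Gng7, a γ subunit of striatum, was at -0.06 (0.886 to 1.03) and Gng5 at -0.06 (0.813 to 1.13). Of these, Gng4, Gng5, Gng7 and Gng12 have fractional counts, and the summed γ counts gave a fold of 0.967 (0.942 to 0.992).

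Genes of the R4 group, small proteins with little beside the RGS domain, held both ends of the scale. Rgs16 had 4724 counts in ST and 5348 in NT, a log2 ratio of 0.16 (1.07 to 1.16), and 9.24% of measured genes had a higher ratio. Rgs2, which favours Gαq and is known as an early response gene, had 1268 and 1475 counts and stood at 0.12 (1.01 to 1.17). Rgs4 had 1622 and 1921 counts and stood at 0.09, with an interval that just held 1 (0.997 to 1.14). Rgs8, known from Purkinje cells, had 1601 and 2200 counts with a ratio of -0.12 (0.861 to 0.980). Rgs3 was at -0.08 (0.844 to 1.05). Rgs5 had 1359 and 2138 counts and a ratio of -0.32 (0.749 to 0.859), and 4.04% of measured genes had a lower ratio. The counts of Rgs16, Rgs2, Rgs4, Rgs8 and Rgs5 are whole, and those of Rgs3 are fractional.

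The other RGS groups had no interval clear of 1. In the R7 group, whose members bind Gβ5, Rgs7 had 595 and 676 counts with a log2 ratio of 0.15 (0.993 to 1.24), Rgs9 stood at 0.07 (0.954 to 1.16) and Rgs11 at -0.02 (0.833 to 1.17). Rgs10 of the R12 group was at 0.07 (0.966 to 1.14), Rgs12 at -0.01 (0.902 to 1.09) and Rgs14, with 76 and 100 counts, at -0.06 (0.702 to 1.31). In the RZ group, named for its action on Gαz, Rgs17 stood at -0.02 (0.935 to 1.04), Rgs19 at -0.12 (0.797 to 1.06) and Rgs20 at 0.05 (0.880 to 1.21). Of these groups Rgs10 has fractional counts. Over the 15 measured RGS genes the median was -0.01, with 7 higher and 8 lower. The summed RGS counts gave a fold of 1.01 (0.994 to 1.03).

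**Figure D3:**
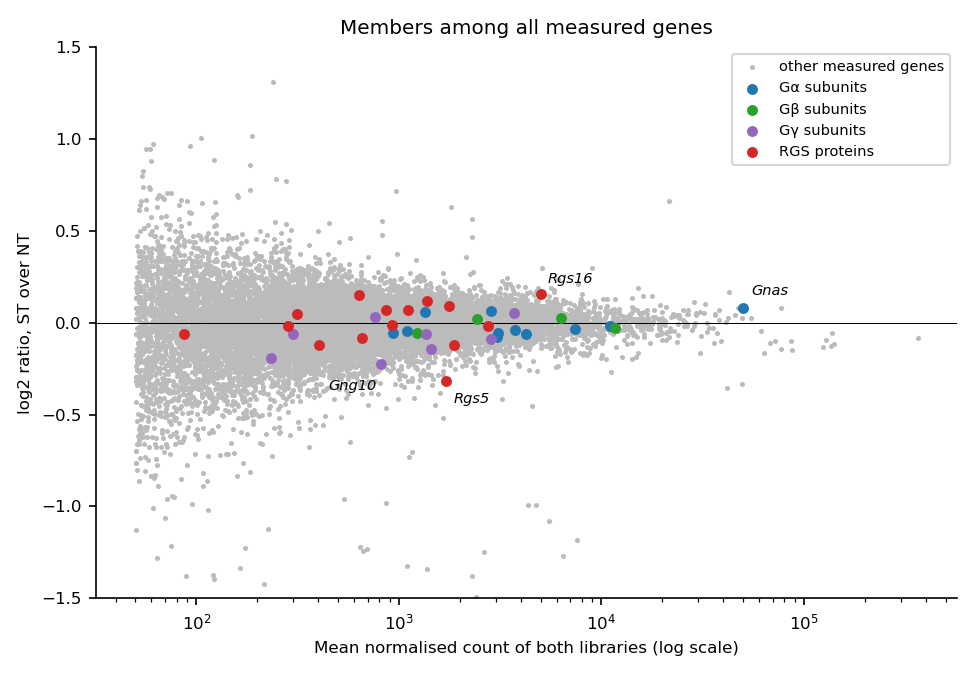
Mean normalised count of both libraries (log axis) against the log2 ratio, ST over NT, for all measured genes in grey and the members in colour; 9 genes lie beyond the plotted limit of 1.5. Most members lie inside the grey cloud near 0, and Rgs5 at -0.32 lies toward its lower side.

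Markers of non-neuronal cells were lower in the ST library together with Rgs5. Of 10 mural markers 9 were measured, 8 of them lower and 6 with an interval below 1, and their median log2 ratio was -0.29 with a range from -0.41 to 0.21. Pdgfrb, the pericyte receptor for platelet-derived growth factor, was at -0.41, Acta2, the actin of smooth muscle, at -0.33 and Vtn at -0.29, close to the -0.32 of Rgs5. The summed level of all 10 was 51.1 RPKM in ST and 60.9 in NT, and none was at 0. Kcnj8 at 0.21 was the mural marker that went the other way, with an interval that held 1 (0.848 to 1.59). Tagln, at -0.08 (0.759 to 1.17), also had an interval that held 1.

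The lists of other non-neuronal cells had medians below 0 as well. All 10 endothelial markers were lower, 9 with an interval below 1, with a median of -0.32 (range -0.42 to -0.24) and summed levels of 66.9 RPKM in ST and 83.4 in NT, beside Gng11 at -0.19. All 11 microglial markers were lower, 7 with an interval below 1, with a median of -0.24 (range -0.51 to -0.03) and summed levels of 148 and 173 RPKM. Rgs10 at 0.07 and Gnai2 at -0.03, which microglia express, had intervals that held 1. All 10 oligodendrocyte markers were lower, with a median of -0.32 (range -0.56 to -0.19) and sums of 955 and 1167 RPKM, and 7 of 8 astrocyte markers, with a median of -0.12 (range -0.32 to 0.05) and sums of 698 and 759 RPKM. The 6 measured of 7 meningeal markers had a median of -0.80 (range -1.22 to -0.37) and sums of 13.2 and 23.1 RPKM, and the 3 measured of 4 blood markers a median of -0.23 (range -0.24 to -0.12). None of the listed non-neuronal markers was at 0 in either library. Their part in the values of Rgs5, Gng10, Gng11 and Gng12 was not tested.

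Neuronal markers were nearly level, with a median of -0.02 over 7 genes (range -0.11 to 0.06) and sums of 759 and 758 RPKM. Stmn2 stood at 0.06 and Syt1 at -0.11. Markers of striatum, whose own RGS and G protein genes are Rgs9, Gnal and Gng7, had a median of -0.02 over 4 measured genes (range -0.15 to 0.04) and sums of 16.7 and 16.8 RPKM. Of the 6 SCN markers Avp was higher, at 0.21, and the other 5 had ratios from -0.29 (Prok2) to -0.06, with Vip at -0.24. The median of the 6 was -0.16. The counts of Avp, Prok2 and Six6 are fractional. The part of these markers in the values of Rgs16 and Rgs8 was not tested.

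**Figure D4:**
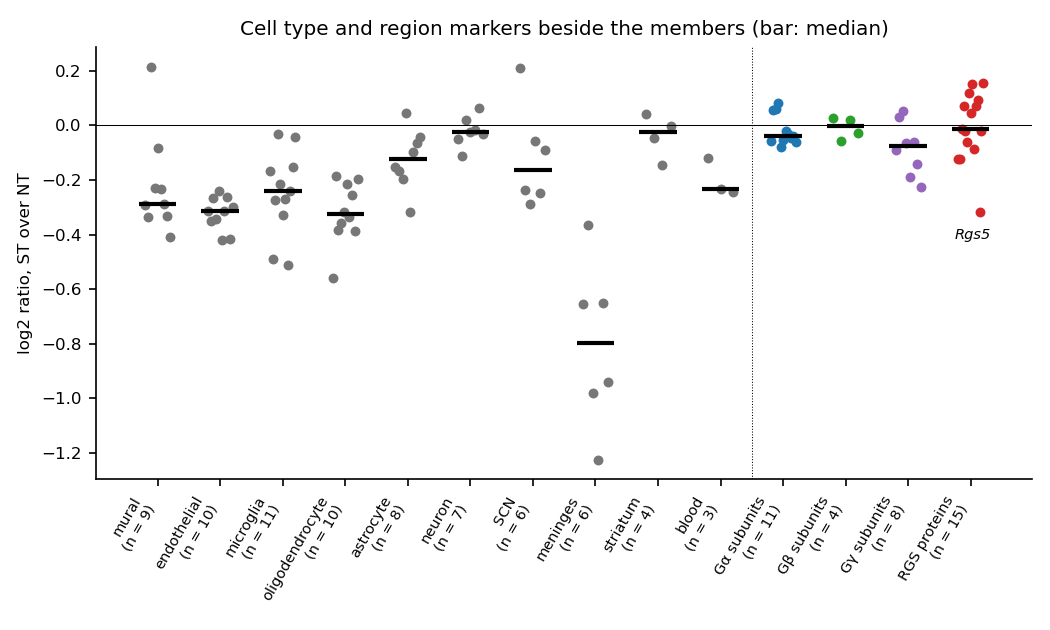
The log2 ratio, ST over NT, of measured cell type and region markers (grey) and of the members by family (colour), each point a gene and each bar a median. Mural, endothelial, microglial, oligodendrocyte, meningeal and blood medians lie from -0.80 to -0.23. The SCN median lies at -0.16, the astrocyte median at -0.12 and those of neurons and striatum at -0.02. The medians of the member families lie between -0.08 and -0.00.

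Several members are neighbours in the genome. All 10 members on chromosome 1 are RGS genes, and 8 pairs of members anywhere lie within 100 kb of each other, all but that of Gnai2 and Gnat1 with no other listed gene between. On mm9, Rgs8 (chr1:155500155-155544797) and Rgs16 (chr1:155587479-155592598) are 42.7 kb apart on the plus strand. Rgs16 had 8.82 times the RPKM of Rgs8 in ST and 7.26 times in NT, and the intervals of their ratios, 0.861 to 0.980 and 1.07 to 1.16, did not overlap. Rgs5 (chr1:171585632-171625944, plus strand) and Rgs4 (chr1:171671608-171677773, minus strand) are 45.7 kb apart. Rgs4 had 1.75 times the RPKM of Rgs5 in ST and 1.32 times in NT, and their intervals, 0.997 to 1.14 and 0.749 to 0.859, did not overlap either. In both pairs of measured RGS neighbours the ratios thus lay on opposite sides of 0. Genes of all kinds split nearly evenly, with 7048 measured genes higher and 7295 lower. The pairs also hold the members with the highest and the lowest ratio, Rgs16 and Rgs5. The share of such pairs among neighbours of all genes was not computed. Rgs9 and Gna13, 64.7 kb apart on chromosome 11, stood at 0.07 and -0.08 with intervals that overlapped.

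The α subunit pairs set an abundant gene beside a scarce one. Gna11 and Gna15 lie 4.5 kb apart on chromosome 10, at 32.7 and 0.554 RPKM in ST and 31.0 and 0.663 in NT. Gnaq and Gna14 lie 48.3 kb apart on chromosome 19, at 33.6 and 0.109 RPKM in ST and 34.8 and 0.135 in NT. Each transducin gene lies beside an inhibitory subunit. Gnat2 and Gnai3 are 5.85 kb apart on chromosome 3, at 0.0688 and 15.1 RPKM in ST and 0.135 and 15.5 in NT. Gnat1 and Gnai2 are 39.1 kb apart on chromosome 9, at 0.0694 and 154 RPKM in ST and 0.109 and 157 in NT. The scarce gene of each pair rests on few counts, at most 35. In all 4 pairs the same gene was the higher one in both libraries.

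**Figure D5:**
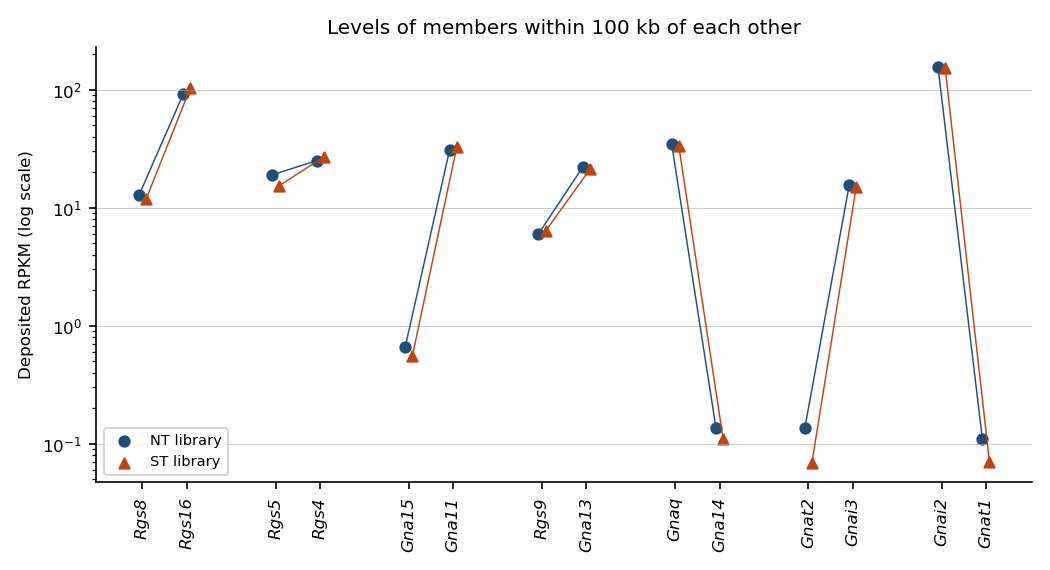
Deposited RPKM (log axis) of members within 100 kb of each other, NT as circles and ST as triangles, with a line joining the genes of a pair in each library; the pair of Rgs13 and Rgs1 is left out because Rgs13 is listed at 0 in NT. The pair of Rgs5 and Rgs4 lies closest together and spreads apart in ST, from 1.32 times to 1.75 times.

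Over the other genes of the pathway, 4 of 50 measured had an interval above 1 (8%, beside 7.79% of all measured genes) and 5 one below 1 (10%, beside 10.2%), which is near the background. Of 20 listed partners and regulators of G proteins 13 were measured, 1 with an interval above 1 and 2 below, with a median log2 ratio of 0.02 (-0.04 among genes with whole counts only). Gpr179, a membrane anchor of R7 RGS proteins in the retina, had 208 counts in ST and 204 in NT and stood at 0.36 (1.06 to 1.57), past 1.2-fold. Rgs7bp, which tethers the same RGS proteins to membranes, had 584 and 851 counts and stood at -0.21 (0.778 to 0.963), and Snx13, a sorting nexin with an RGS domain, at -0.16 (0.827 to 0.972). Axin1, a scaffold with an RGS domain, was at 0.10 (0.972 to 1.18) and Rap1gap at 0.02 (0.970 to 1.06).

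Receptor kinases and arrestins, which silence the receptor itself, had no interval clear of 1 among 7 measured genes and a median of -0.04, which was 0.03 among genes with whole counts only. Grk4 was at -0.37 with 61 and 100 counts (0.551 to 1.07), Arrb2 at -0.13 (0.828 to 1.01), Grk5 at -0.10 (0.693 to 1.24), Adrbk2 at 0.08 (0.995 to 1.12) and Adrbk1, the most abundant receptor kinase, at 0.03 (0.980 to 1.07). Among 19 measured effectors, 2 had an interval above 1 and 1 below, and the median was 0.01. Kcnj5, a potassium channel opened by Gβγ, stood at 0.29 (1.04 to 1.44, 307 and 316 counts, past 1.2-fold), and Adcy3, an adenylyl cyclase, at 0.10 (1.02 to 1.13). Plcb3, a phospholipase activated by Gαq, was at -0.18 (0.786 to 0.997). Kcnj6, another such channel, at 0.27 (0.931 to 1.57) and Adcy4 at -0.44 (0.514 to 1.04) had intervals that held 1.

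Receptors of the SCN had 1 interval above 1 (9.09%) and 2 below (18.2%) among 11 measured genes, too few to set against the shares of 7.79% and 10.2% of all genes, with a median of 0.04 and a mean of -0.02. Gpr176, the receptor that couples to Gz, had 852 counts in ST and 979 in NT and a log2 ratio of 0.14, with a lower bound just above 1 and an upper one of 1.21, beside Gnaz at 0.06 and Rgs16 at 0.16. Gabbr1, a subunit of the metabotropic GABA receptor, was at -0.07 (0.927 to 0.973, 11641 and 15476 counts) and Adcyap1r1, the receptor of the retinal peptide PACAP, at -0.10 (0.913 to 0.959, 11058 and 14914 counts). Avpr1a stood at 0.10 (0.930 to 1.24), Nmur2 at -0.18 (0.646 to 1.2) and Grpr at -0.31 (0.614 to 1.05).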

How the data were processed

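Polyadenylated SCN RNA of 1 NT and 1 ST library was sequenced, and the authors' single table was used. Per the file headers it holds estimated counts, RPKM and RPM values, and the authors' fold change (a ratio), its log2 and p-values for ST over NT. Tools listed in the submitters' processing notes are TopHat 1.2, CASAVA 1.8.2 and DESeq, and the build is mm9. No source used here names the counter. A further 3 columns of means were not used. Counts are fractional for 42.4% of genes in ST and 43.1% in NT (tolerance 1e-06), for a reason no source used here gives, and were rounded.

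Scaling used median-of-ratios factors (0.890 for ST, 1.12 for NT), a pseudocount of 0.5 for log2 ratios and a filter of 50. Intervals are exact Clopper-Pearson intervals of the ST share of both counts (95%, scipy 1.17.1). They cover counting error only, as no group had a replicate, and they treat reads as independent molecules, which reads are not. The ratio script was tested on simulated data. TMM factors came from edgeR 4.0.16. All 49 members were found at their position in GENCODE vM1 (NCBIM37, the assembly of mm9), and 37 had a RefSeq promoter. No protein sequences were used.

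Members named are the 8 highest and 8 lowest ranked by the bound of the interval that lies closer to 1, the 3 most abundant of each family, those below the filter, and Rgs16, Rgs4 and Rgs5; the remaining measured members are given by their values. From each pathway and marker list up to 4 genes by size and the most abundant one were eligible. Adcyap1r1, Kcnj8 and Tagln were chosen after their values were seen. The members and lists were chosen with earlier results of these data known. Alternatives were total-count and TMM scaling, a lower and a higher filter, a larger pseudocount, whole counts only, RPKM ratios, other size rules, means of lists and other length units.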

Additional observations from a re-analysis of the deposited data

How the results depend on the processing

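No paired analysis was possible because ST and NT had a single library apiece, which also left no replicate to leave out. All 254 alternative values of single members stayed within their counting interval, and all 149 of list medians within the median interval of their genes. For single members much of this was fixed in advance. A filter or whole counts only cannot change the ratio of a gene, and a new scaling shifts all genes by nearly the same small amount. No member with an interval clear of 1 changed direction. List medians near 0 did change sign: Gβ from -0.00 to 0.01 with total-count scaling and with RPKM ratios, RGS from -0.01 to 0.02 and receptor kinases from -0.04 to 0.03 with the higher filter, partners from 0.02 to -0.04 and receptor kinases to 0.03 with whole counts only, and SCN receptors from 0.04 to -0.02 as a mean. A looser size rule cannot give fewer members and a stricter one cannot give more. With 1.1-fold 1 member was higher and 3 were lower, and with 1.5-fold 0 were lower. The share of all genes under these 2 rules was not computed, so these counts are not read as a result about the members. The other 29 of 32 alternative counts stayed the same. Scaling by total counts shifted the median of all genes by 0.012, which moved Rgs4 and Rgs7 to an interval above 1 and Gna13 and Gnaq to one that held 1. With whole counts only, 27 members were left, 2 with an interval above 1 and 4 below, beside 7.46% and 11.1% of all genes with whole counts. The leading gene of each family was the same under every length unit, but its share was not. Without division by length, Gnas held 57.2% of the Gα level in ST and 55.3% in NT, Gng3 33.3% and 31.0% of the Gγ level, Rgs16 26.6% and 24.2% of the RGS level, and Gnb1 54.2% of the Gβ level in NT. Per kilobase of merged exons, added after the data had been seen, the shares were 32.1% and 30.4% for Gnas, 54.9% and 55.8% for Gnb1, and 45.2% and 42.4% for Gng3. Depth limits scarce members most, with an interval of 0.702 to 1.31 for Rgs14 against the narrower one of Gnas.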
